A study of Homo sapiens with 16 samples.

Results

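Human chromosome 19, the most gene-dense autosome, was set against chromosome 18, one of the most gene-poor, in peak lists from chromatin immunoprecipitation followed by sequencing (ChIP-seq) of the NF-κB subunits RELA, RELB and NFKB2. The members were all listed peaks of up to 5000 bp whose chromosome name was 19, and no measured enrichment entered the choice. They numbered 107572 of 6172657 peaks on chromosomes 1 to 22, X and Y, or 1.74%, and chromosome 18 held 186709, or 3.02%. The longest peak kept on chromosome 19 was 4872 bp and the shortest interval left out was 5037 bp, against 4843 bp and 5028 bp on chromosome 18.

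The cells were T47D, an established estrogen receptor-positive breast cancer line of the Luminal A type. They carried a lentiviral shRNA against DAB2IP, which encodes a RasGAP (a protein that turns Ras signalling off), or the empty vector, and both were selected with puromycin and fixed with disuccinimidyl glutarate and formaldehyde. Each condition was immunoprecipitated with each of the 3 antibodies in 2 replicates, which gave 12 libraries in 6 groups: DAB2IP knockdown RELA, control RELA, knockdown RELB, control RELB, knockdown NFKB2 and control NFKB2. The 4 input libraries had no peak list and entered only as the background of the peak calls. No source states whether replicates came from separate cultures, so the p-values measure the spread between these libraries, which may be technical. Libraries with a condition and a replicate number in common, one per antibody, are called a preparation, of which there were 4. They were taken to share an input, since the titles list an input library for each condition and replicate number. Peak lists hold no expression values, so neither the depletion of DAB2IP nor the identity of the line was checked here.

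NF-κB is a family of dimeric transcription factors that bind a short DNA element, the κB site. RELA belongs to the canonical pathway, in which inhibitors of the IκB family hold the dimer in the cytoplasm until a signal destroys them, and RELB and NFKB2 form the dimer of the noncanonical pathway, in which the NFKB2 precursor is cut to its active form. Chromosome 19 carries large clusters of related genes, among them KRAB zinc finger repressors, kallikrein proteases and immune receptors, whereas chromosome 18 carries few and long genes separated by wide gaps.

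Promoter sequences of 6 genes show windows of differing base composition. Each line gives the RefSeq GRCh38.p14 window from 250 bases before to 50 bases after the transcription start, 5′ to 3′ on the strand of the gene, with CpG dinucleotides in capitals.
PSENEN: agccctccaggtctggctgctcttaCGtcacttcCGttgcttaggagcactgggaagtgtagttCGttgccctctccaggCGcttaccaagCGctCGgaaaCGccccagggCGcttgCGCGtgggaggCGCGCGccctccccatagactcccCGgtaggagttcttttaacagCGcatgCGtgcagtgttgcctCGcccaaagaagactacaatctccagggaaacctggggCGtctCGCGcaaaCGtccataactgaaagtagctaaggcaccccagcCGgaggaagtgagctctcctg
TMEM147: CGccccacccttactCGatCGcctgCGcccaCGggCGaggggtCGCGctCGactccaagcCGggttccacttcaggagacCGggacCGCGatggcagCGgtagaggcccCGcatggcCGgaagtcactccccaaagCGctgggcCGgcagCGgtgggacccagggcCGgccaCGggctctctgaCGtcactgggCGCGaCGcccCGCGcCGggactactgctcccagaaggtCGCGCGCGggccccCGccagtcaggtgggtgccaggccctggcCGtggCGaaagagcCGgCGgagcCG
SLC1A6: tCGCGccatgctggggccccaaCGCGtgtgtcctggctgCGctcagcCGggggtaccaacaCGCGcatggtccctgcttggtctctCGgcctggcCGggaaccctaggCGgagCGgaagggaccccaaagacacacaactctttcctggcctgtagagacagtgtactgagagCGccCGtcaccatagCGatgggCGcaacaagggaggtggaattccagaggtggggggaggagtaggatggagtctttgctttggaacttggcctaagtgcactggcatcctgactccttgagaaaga
ZNF254: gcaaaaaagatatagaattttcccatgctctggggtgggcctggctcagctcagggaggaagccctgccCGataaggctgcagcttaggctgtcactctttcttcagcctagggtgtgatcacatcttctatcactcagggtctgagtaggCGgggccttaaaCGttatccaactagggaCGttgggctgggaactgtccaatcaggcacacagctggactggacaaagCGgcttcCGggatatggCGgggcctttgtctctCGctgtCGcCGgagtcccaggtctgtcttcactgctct
SERPINB13: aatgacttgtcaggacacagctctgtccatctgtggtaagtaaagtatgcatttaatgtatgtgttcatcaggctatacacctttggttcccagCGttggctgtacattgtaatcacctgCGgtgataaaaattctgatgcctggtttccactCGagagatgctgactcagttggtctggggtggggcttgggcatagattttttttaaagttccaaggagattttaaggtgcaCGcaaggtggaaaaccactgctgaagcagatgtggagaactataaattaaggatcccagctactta
ZCCHC2: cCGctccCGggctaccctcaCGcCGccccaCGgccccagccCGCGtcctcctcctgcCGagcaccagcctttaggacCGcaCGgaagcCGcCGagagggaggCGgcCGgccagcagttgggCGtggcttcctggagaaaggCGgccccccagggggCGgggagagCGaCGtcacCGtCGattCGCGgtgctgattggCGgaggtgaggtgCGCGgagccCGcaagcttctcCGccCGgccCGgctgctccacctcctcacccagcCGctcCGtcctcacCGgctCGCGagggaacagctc

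PSENEN (chr19:35745401-35745700, plus strand), a γ-secretase subunit, and TMEM147 (chr19:35545376-35545675, plus strand), a membrane protein, were shown because the study displays NF-κB binding at both. SLC1A6 (chr19:15010594-15010893, minus strand), a glutamate transporter, and ZNF254 (chr19:24086937-24087236, plus strand), a zinc finger gene, are chromosome 19 genes with a peak near the start in the most libraries. SERPINB13 (chr18:63587093-63587392, plus strand), a serine protease inhibitor, and ZCCHC2 (chr18:62522775-62523074, plus strand), a zinc knuckle gene, are the equivalent on chromosome 18. A peak lay within 1 kb of the start of TMEM147 in 1 of 12 libraries, although its window had 74.3% GC and 38 CpG. The start of PSENEN (60.0% GC, 22 CpG) had one in 7 libraries. SLC1A6 (61.0% GC, 16 CpG) and ZNF254 (55.7% GC, 10 CpG) had one in 8 libraries each. On chromosome 18, SERPINB13 (43.7% GC, 4 CpG) had a start peak in 9 libraries and ZCCHC2 (73.7% GC, 35 CpG) in 8. SERPINB13 and ZCCHC2 thus lay near opposite ends of the GC of the windows shown, with SLC1A6 and ZNF254 between them. None of the windows of PSENEN, TMEM147, SLC1A6, ZNF254, SERPINB13 and ZCCHC2 held the κB consensus.

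Some libraries stood apart. Knockdown RELA replicate 1 listed 105534 peaks and knockdown RELB replicate 1 listed 75078, against 517650 to 708764 in the other 10 libraries. In these same libraries the peak caller had scaled the IP signal, by factors of 0.910 and 0.983. Knockdown RELA replicate 2 and knockdown NFKB2 replicate 2 were the only libraries with intervals over 5000 bp on the chromosome pair. The lists do not give read depth, but the number of fragments at each summit and the local background could be recovered from the listed fold enrichment and p-value in 100% of peaks, to within 0.001 on the −log10 p scale. The median peak on chromosome 19 rested on 2 to 4 fragments, depending on the library, and so did the median peak on chromosome 18.

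Chromosome 19 had fewer peaks per Mb than chromosome 18 in every library, and gene density and peak density were thus ordered in opposite ways. For RELA, knockdown replicates 1 and 2 had 25.3 and 169 peaks per Mb on chromosome 19, and 30.0 and 237 on chromosome 18. Control RELA replicates had 146 and 163 on chromosome 19, and 189 and 188 on chromosome 18. The spread between knockdown replicates was far wider than the gap between the chromosomes, yet within each library chromosome 19 was lower. For RELB, the knockdown replicates had 21.7 and 130 peaks per Mb on chromosome 19 and 22.1 and 201 on chromosome 18, and the control replicates 171 and 143 against 205 and 194. For NFKB2, the knockdown replicates had 172 and 218 peaks per Mb on chromosome 19 and 197 and 278 on chromosome 18, and the control replicates 259 and 217 against 291 and 294. The ratio of chromosome 19 to chromosome 18 ran from 0.645 in knockdown RELB replicate 2 to 0.984 in knockdown RELB replicate 1, with a median of 0.809, and the extremes were thus replicates of the same group.

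**Figure D1:**
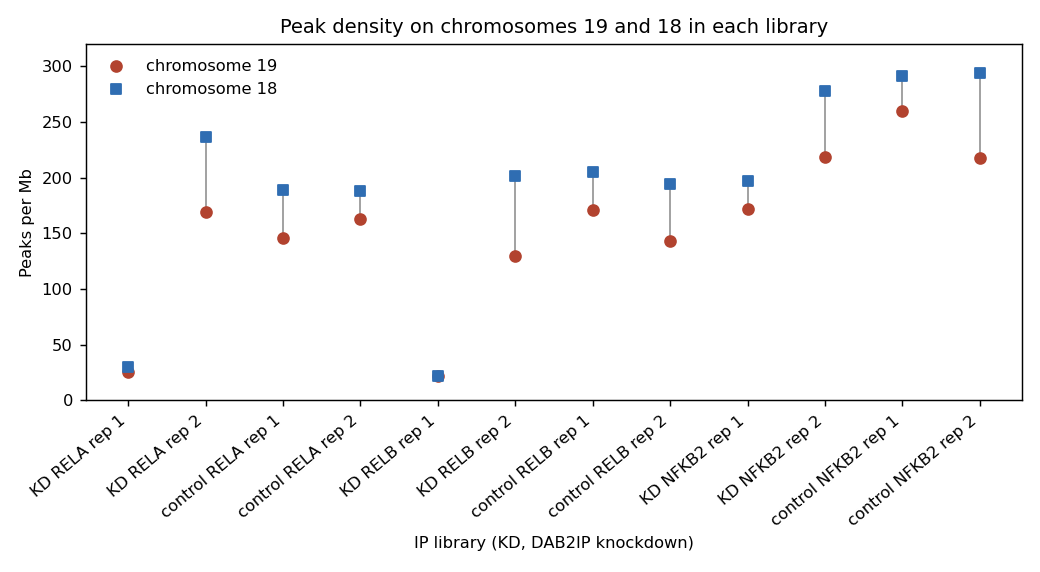
Peaks per Mb on chromosomes 19 and 18 in each of the 12 libraries (one point a library and chromosome), joined by a line. The ratio of chromosome 19 to 18 is below 1 in all 12, between 0.645 and 0.984.

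On the log2 scale the mean ratio was -0.32 ± 0.17 (SD, n = 12), below 0 in 12 of 12 libraries (exact two-sided sign-flip permutation test over libraries, p = 0.000488, the smallest that 12 libraries can give; 0.00342 after Benjamini-Hochberg adjustment over 14 measures). Without the short lists of knockdown RELA replicate 1 and knockdown RELB replicate 1 it was -0.35, and without the libraries that list intervals over 5000 bp it was -0.30 (exact sign-flip permutation p = 0.00195 for both, the smallest that 10 libraries can give). Libraries of a preparation were not taken as independent. With the 4 preparations as units the mean was -0.32 ± 0.14, below 0 in 4 of 4, and the exact p was 0.125, the smallest that 4 units allow, so no sign-flip call over libraries can pass 0.05 with preparations as units.

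The order of the chromosomes depended on how many fragments lay under the summit. Among summits on 2 or fewer fragments, 35497 peaks on chromosome 19 and 72808 on chromosome 18, the log2 ratio of densities was -0.72 ± 0.30 and below 0 in all 12 libraries. At 3 fragments (43784 and 75204 peaks) it was -0.33 ± 0.18, again with none above 0. At 4 fragments (20497 and 29596 peaks) it was -0.08 ± 0.15, with 3 of 12 libraries above 0, so the chromosomes did not differ beyond the spread between libraries. At 5 to 6 fragments (7423 and 8779 peaks) chromosome 19 was higher, by 0.18 ± 0.19, in 9 of 12 libraries. At 7 to 9 fragments (341 and 253 peaks) it was higher by 0.86 ± 0.43 in 12 of 12. The 30 and 69 peaks on 10 or more fragments gave -0.59 ± 0.97 over the 9 libraries that had such peaks on both chromosomes.

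The exact sign-flip permutation test, two-sided, gave adjusted p-values of 0.000977 for 2 or fewer, 3, and 7 to 9 fragments, 0.0117 for 5 to 6, and 0.109 for 4 and for 10 or more. These classes were drawn after the values had been seen. Peaks are listed at p up to 0.05 against the local background, so a summit on a higher background needs more fragments. The classes are thus not independent of the background, and its part in these p-values was not tested. For all summits on at least 5 fragments, 7794 peaks on chromosome 19 and 9101 on chromosome 18, the ratio ran from 0.935 to 1.45 with a median of 1.15, above 1 in 10 of 12 libraries. Their mean log2 ratio was 0.20 (exact sign-flip permutation p = 0.00439), the opposite sign to the ratio over all peaks.

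**Figure D2:**
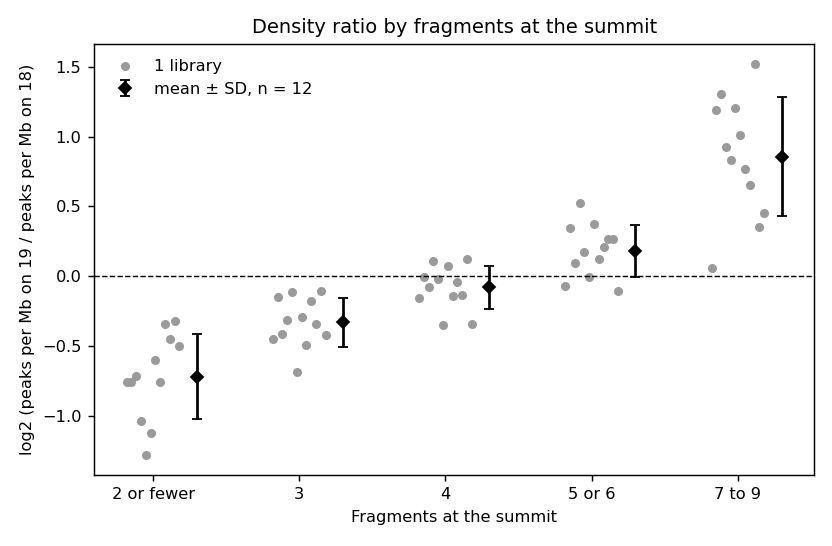
Log2 ratio of peak density on chromosome 19 over chromosome 18 (y axis) by the number of fragments at the summit (x axis), one point a library. The mean rises from -0.72 at 2 or fewer fragments to 0.86 at 7 to 9, and crosses 0 between 4 and 5.

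The local background at the summit moved with this order. Its median was 0.530 to 0.967 fragments on chromosome 19 and 0.467 to 0.796 on chromosome 18, and chromosome 19 was higher in 12 of 12 libraries, by 0.14 ± 0.07 on the log2 scale (exact sign-flip permutation p = 0.000488, adjusted p = 0.00342). Mean fragments per summit were also higher on chromosome 19, by 0.132 ± 0.104, in 11 of 12 libraries (exact permutation p = 0.000977, adjusted p = 0.00456). The median fold enrichment was lower on chromosome 19 by 0.024 ± 0.0198, with no library in the other direction (exact permutation p = 0.00195, adjusted p = 0.00684). Peaks on 3 or fewer fragments were 32.7% to 90.8% of the chromosome 19 peaks and 38.1% to 93.6% of the chromosome 18 peaks. The part of the background in the density ratio was not tested.

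Over all peaks, median width differed between the chromosomes by less than the spread between libraries. The median width was 147 to 185 bp on both, and the difference of medians was 0.667 ± 5.38 bp (8 libraries wider on chromosome 19 and 3 narrower; exact sign-flip permutation p = 0.732). For summits on at least 5 fragments, peaks on chromosome 19 were narrower, with a difference of -8.75 bp (exact permutation p = 0.00537). The shortest listed peak was 147 bp, and 37.6% to 51.3% of chromosome 19 peaks and 37.6% to 52.3% of chromosome 18 peaks had exactly that width. Knockdown RELA replicate 2 had the lowest median on chromosome 19, 147 bp against 160 bp on chromosome 18.

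Knockdown and control did not differ in the ratio of the chromosomes for any antibody beyond the spread between replicates. For RELA the mean ratio was 0.780 ± 0.0906 (SD, n = 2) in knockdown and 0.818 ± 0.0692 in control libraries. For RELB it was 0.815 ± 0.240 and 0.785 ± 0.0696, and for NFKB2 0.830 ± 0.0638 and 0.815 ± 0.108. The values of knockdown and control overlapped for each antibody.

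The knockdown minus control differences of the log2 ratio were -0.07 for RELA, 0.02 for RELB and 0.03 for NFKB2, with exact two-sided permutation p-values of 0.667, 1 and 1 where 2 against 2 cannot go below 0.333. The direction was carried by single libraries: for RELA it became 0.05 without knockdown replicate 2 and 0.02 without control replicate 2, for RELB -0.28 without knockdown replicate 1 and -0.07 without control replicate 2, and for NFKB2 -0.05 without knockdown replicate 1 and -0.10 without control replicate 2. Differences between antibodies in the knockdown effect were -0.10 (RELA against RELB), -0.10 (RELA against NFKB2) and -0.01 (RELB against NFKB2), with exact permutation p-values of 0.778, 0.611 and 0.944. The 3 antibody means lay within 0.05 of each other (exact permutation of antibody names within preparations, 1296 orderings, p = 0.829). By preparation the mean log2 ratio was -0.27 and -0.36 in control replicates 1 and 2, and -0.15 and -0.49 in knockdown replicates 1 and 2.

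At the level of regions, few places on chromosome 19 were listed in both libraries of a condition. For each antibody, overlapping peaks (by at least 1 bp) from its 4 libraries were merged into regions. RELA had 26852 regions on chromosome 19, of which 91 (0.339%) were listed in both knockdown and neither control library, against 0.566% of regions on all chromosomes, and 645 (2.40%) in both control and neither knockdown library, against 2.44%. RELB gave 24867 regions, with 50 (0.201%) knockdown-only against 0.347% on all chromosomes and 710 (2.86%) control-only against 2.96%. NFKB2 gave 42551 regions, with 736 (1.73%) knockdown-only against 2.09% and 1309 (3.08%) control-only against 2.93%. Chromosome 19 thus lay below the knockdown-only share of all chromosomes for each antibody and close to the control-only share. Chromosome 18, whose shares follow, also lay below the knockdown-only share of all chromosomes for each antibody.

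The RELA shares on chromosome 18 were 0.398% knockdown-only and 2.76% control-only, the RELB shares 0.268% and 3.14%, and the NFKB2 shares 1.99% and 3.51%. The small knockdown-only counts of RELA and RELB went with the short lists of their knockdown replicate 1, and without those lists 8423 and 6327 chromosome 19 regions were in the remaining knockdown library and no control library. The part of list length in the counts was not tested. On chromosome 19, 6 RELA, 3 RELB and 66 NFKB2 regions recurred across all 4 of their libraries, while 90.8%, 91.1% and 83.4% occurred in 1 library. An exact permutation of labels cannot give a region a p below 0.333 with 2 libraries against 2, and regions were not tested.

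The share of bases that 2 lists had in common, as a percentage of the bases in either, was also small. On chromosome 19 it averaged 1.92% between replicates of the same group, 3.41% between different antibodies of the same preparation, 1.94% between conditions with the same antibody, and 1.80% between libraries that shared neither. The same averages on chromosome 18 were 2.31%, 4.06%, 2.34% and 2.22%. Libraries of the same preparation, which were taken to share an input, thus had more in common than replicates of the same antibody on both chromosomes.

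Over all peaks, the share in gene spans lay near the share of length that the spans cover. Protein-coding genes (RefSeq GRCh38.p14) numbered 1410 on chromosome 19, or 24.1 per Mb, the highest of 22 autosomes, and 268 on chromosome 18, or 3.34 per Mb, rank 21. The median gene was 14.5 kb long on chromosome 19 and 52.1 kb on chromosome 18, and gene spans covered 53.7% and 36.7% of the chromosomes. Between 50.3% and 55.2% of chromosome 19 peaks had their midpoint in a coding span, with a median of 53.6%, against 35.2% to 38.0% and a median of 36.4% on chromosome 18. The ranges did not overlap, but each lay at the share of length that spans cover.

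Divided by that share, the enrichment in spans was 0.988 on average on chromosome 19 (0.937 to 1.03) and 0.998 on chromosome 18 (0.959 to 1.04), where 1 means that peaks are as dense inside as over the whole chromosome. The log2 difference between the chromosomes was -0.02 ± 0.04, lower on chromosome 19 in 8 of 12 libraries (exact sign-flip permutation p = 0.235). This depended on the peaks and length used: the difference was -0.08 (exact permutation p = 0.0283) for summits on at least 5 fragments, -0.04 (exact permutation p = 0.0137) when stretches without peaks were left out, and 0.08 (exact permutation p = 0.115) for the 20000 smallest p-values of each library. For chromosome 19 alone the log2 enrichment was -0.02 ± 0.05, below 0 in 6 of 12 libraries (exact permutation p = 0.200).

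**Figure D3:**
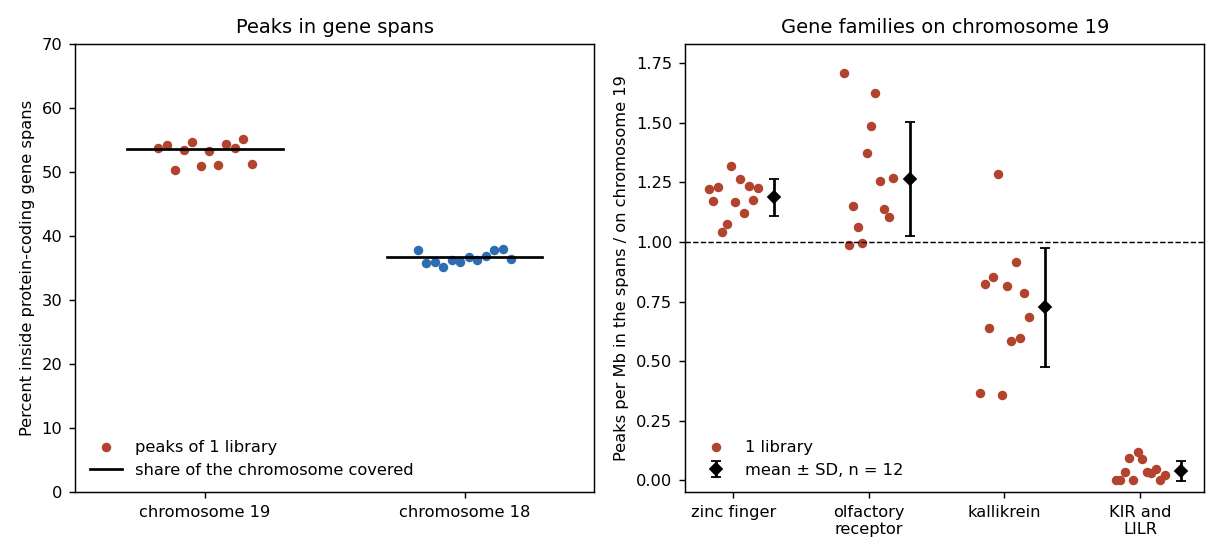
Left, percentage of peaks inside coding spans in each library (points) with the share of the chromosome that spans cover (lines, 53.7% and 36.7%). Right, peaks per Mb in the spans of 4 gene families of chromosome 19 over that of the whole chromosome, with mean ± SD over 12 libraries. Zinc finger spans lie above 1 in 12 of 12 libraries and KIR and LILR spans close to 0.

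Around transcription starts chromosome 19 had fewer peaks than its own average. Windows of 1 kb on either side of coding starts covered 4.42% of chromosome 19 and held 3.28% to 4.95% of its peaks, an enrichment of 0.742 to 1.12 with a mean of 0.898. The log2 enrichment was -0.16 ± 0.18 and below 0 in 10 of 12 libraries (exact sign-flip permutation p = 0.00928, adjusted p = 0.0260), but with the 4 preparations as units the exact p was 0.25. Windows on chromosome 18 covered 0.774% of the length, and the log2 enrichment was -0.18 ± 0.26, below 0 in 10 of 12 libraries (exact permutation p = 0.0396, adjusted p = 0.0923). The chromosomes differed from each other by 0.01 ± 0.15 (exact permutation p = 0.773). Without the short lists that difference was 0.05, and the span difference -0.02.

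Gene families of chromosome 19 lay above or below the chromosome's own peak density. Spans of the 250 zinc finger genes (symbols beginning ZNF, many of them transcriptional repressors) had 15530 peaks in 7.11 Mb, 1.19 ± 0.0791 times the density of chromosome 19 as a whole, above 1 in 12 of 12 libraries (exact sign-flip permutation p = 0.000488, adjusted p = 0.00195). The 20 olfactory receptor genes had 1.26 ± 0.240 times the density, above 1 in 10 of 12 libraries (adjusted p = 0.00260 by the same exact test). Both families were thus denser in peaks than their chromosome in most libraries. With the 4 preparations as units both were above 1 in 4 of 4, at an exact p of 0.125, the smallest possible, which was also the p of the kallikrein genes and of the other coding genes described next.

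The 15 kallikrein genes, a cluster of secreted serine proteases that includes the prostate-specific antigen gene, had 0.725 ± 0.251 times the density, below 1 in 11 of 12 libraries (adjusted p = 0.00391 by the exact sign-flip permutation test). Coding genes other than zinc finger genes, 1160 in 24.4 Mb, had 0.932 ± 0.0581 times the density, below 1 in 11 of 12 libraries (adjusted p = 0.00195 by the exact permutation test). The 17 KIR and LILR genes, immune receptors of natural killer and myeloid cells, held 15 peaks in 8 libraries and 0.0400 ± 0.0415 times the density, and since they were picked after their values had been seen they were not tested. A further 41 coding genes that RefSeq lists on other sequences of chromosome 19 were not counted, and peaks on up to 9 alternate or patch sequences named for chromosome 19 numbered 409 in all.

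Within each chromosome, 1-Mb bins with more genes had fewer peaks. Bin densities were divided by the library's density over all chromosomes, and bins of the longest gene-free stretch were left out. On chromosome 18, the 49 bins with 0 to 4 genes had 1.16 ± 0.162 and the 25 bins with 5 to 14 genes 1.07 ± 0.141 (mean ± SD over 12 libraries). On chromosome 19, the 3 bins with 0 to 4 genes had 1.15 ± 0.211, the 8 with 5 to 14 genes 0.978 ± 0.127, the 22 with 15 to 29 genes 0.949 ± 0.137, and the 22 with 30 or more genes 0.825 ± 0.122.

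In the class of 0 to 4 genes the chromosomes differed by -0.03 ± 0.20 on the log2 scale (exact sign-flip permutation p = 0.646), so no difference beyond the spread was seen, over only 3 bins of chromosome 19. In the class of 5 to 14 genes chromosome 19 was lower (-0.13 ± 0.07) in 11 of 12 libraries (exact permutation p = 0.000977, adjusted p = 0.00195). Spearman's rho between genes and peak density per library was -0.574 to -0.128 over the 55 bins of chromosome 19 (median -0.458) and -0.648 to 0.0588 over the 74 bins of chromosome 18 (median -0.440). With promoter GC it had a median of -0.230 and -0.204. Bins share libraries and neighbouring sequence, so these are descriptions.

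**Figure D4:**
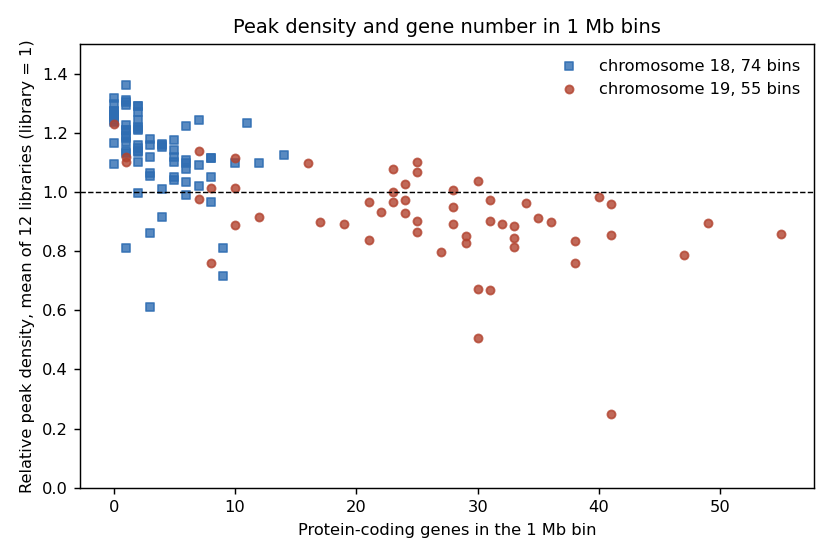
Peak density of 1-Mb bins of chromosomes 19 and 18, relative to the library's density over all chromosomes (y axis, mean of 12 libraries), against coding genes in the bin (x axis), one point a bin. Bins with 30 or more genes occur on chromosome 19 and average 0.825, and bins with 0 to 4 genes average 1.15 on chromosome 19 and 1.16 on chromosome 18.

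The lowest bin of chromosome 19, at 54 to 55 Mb, had 0.251 times the library's density (0.0407 to 0.326 over libraries) and held 41 coding genes, 17 of them of the KIR and LILR families. Next came the bins at 38 to 39 Mb, with 0.506, and at 39 to 40 Mb, with 0.668. In these 3 bins, 70.0%, 35.6% and 25.3% of the length lay in stretches of at least 10 kb without peaks. Such stretches held no peak of up to 5000 bp in any of the 12 libraries. Longer intervals were listed on this pair only in knockdown RELA replicate 2 and knockdown NFKB2 replicate 2. They were not counted, and whether they cover these stretches in those libraries was not examined. The lowest bin of chromosome 18, at 48 to 49 Mb, had 0.612 and 34.0% of such length. The highest bins were 28 to 29 Mb on chromosome 19 (1.23, with 0 coding genes) and 60 to 61 Mb on chromosome 18 (1.36, with 1), so the low ends differed more than the high ends.

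Chromosome 19 had 68 such stretches, 3.54 Mb or 6.05% of its length, and chromosome 18 had 44, 2.49 Mb or 3.10%. The median gap between joined peaks was 0.344 kb on chromosome 19 and 0.288 kb on chromosome 18, so these stretches were long against the usual spacing. Coding genes lying wholly inside them numbered 49 on chromosome 19, or 3.48% of its coding genes, and 5 on chromosome 18, or 1.87%, and on chromosome 6 the share was 12.7%. The longest on chromosome 19, chr19:54673282-54912044, was 239 kb and held KIR genes, FCAR and NCR1, and the longest on chromosome 18, chr18:48678991-48917873, was also 239 kb and lay at CTIF. Whether reads could be placed there was not analysed here. On the length left, the log2 density ratio was -0.27 (exact sign-flip permutation p = 0.000977) and the ratio 0.666 to 1.02, below 1 in 11 of 12 libraries.

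Across chromosomes, neither 19 nor 18 was the extreme. Relative to each library's density over all chromosomes, chromosome 19 had 0.890 ± 0.120 (rank 15 of the 22 autosomes by the mean) and chromosome 18 had 1.11 ± 0.138 (rank 3). Within single libraries chromosome 19 ranged from rank 4 to rank 21 and chromosome 18 from rank 1 to rank 15. Over 22 autosomes, Pearson's r between genes per Mb and peaks per Mb was -0.568 to -0.0625 per library with a median of -0.242, and with chromosome 19 left out the median was -0.473. Spearman's rho had a median of -0.422. Without chromosome 19, the sign of r changed with fragments. On length without peak-free stretches, the median was then -0.432 for summits on 3 or fewer fragments and 0.269 (0.157 to 0.401) for summits on 5 or more. With chromosome 19 kept, the median r was -0.107 and -0.0866, with no change of sign, and the median rho was -0.381 and 0.224. The points share libraries and their depth, and the full lengths include stretches with no peak. For all peaks and all 22 autosomes on the length left, the median r was -0.406.

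Promoter composition was nearly equal on the chromosome pair, and its relation to peak density over autosomes varied with the peaks used. Promoter windows averaged 63.2% GC (SD 8.66) on chromosome 19 and 62.6% (SD 13.1) on chromosome 18, with 21.1 and 24.4 CpG per window, so the pair hardly differed in this measure. Over the 21 autosomes with windows in the table, r between mean promoter GC and peak density was -0.627 to -0.129, with a median of -0.521. On length without peak-free stretches it was -0.604 to 0.177, with a median of -0.448, and the median was 0.111 for summits on 3 or fewer fragments and -0.320 for summits on 5 or more. Genes per Mb and promoter GC were themselves related, with r = 0.265 and rho = 0.319 over the same chromosomes. No genome sequence was used, so the base composition of the peaks was not measured.

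When autosomes were compared by fragments, the order of the chromosomes changed again. For summits on 3 or fewer fragments chromosome 19 had 1.13 times the library's density on the length left (rank 6 by the mean) and chromosome 18 had 1.50 (rank 2), and for summits on 5 or more fragments they had 0.339 (rank 19) and 0.286 (rank 22). The median background on chromosome 19 was 0.883 ± 0.0959 of the library's (rank 19) and that on chromosome 18 0.804 ± 0.109 (rank 21). Over 22 autosomes the mean background correlated with the density of peaks on 5 or more fragments (r = 0.960, rho = 0.967) and inversely with that of peaks on 3 or fewer (r = -0.947, rho = -0.959). These points share libraries, and fragments and background were recovered from the same columns. The background was also known only at listed summits, and a listed summit on a higher background needs more fragments to pass the peak caller's threshold. Correlations of these signs are thus built into the comparison, and no relation beyond that was tested. Both chromosomes lay at the low end of background and the low end of peaks on 5 or more fragments.

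**Figure D5:**
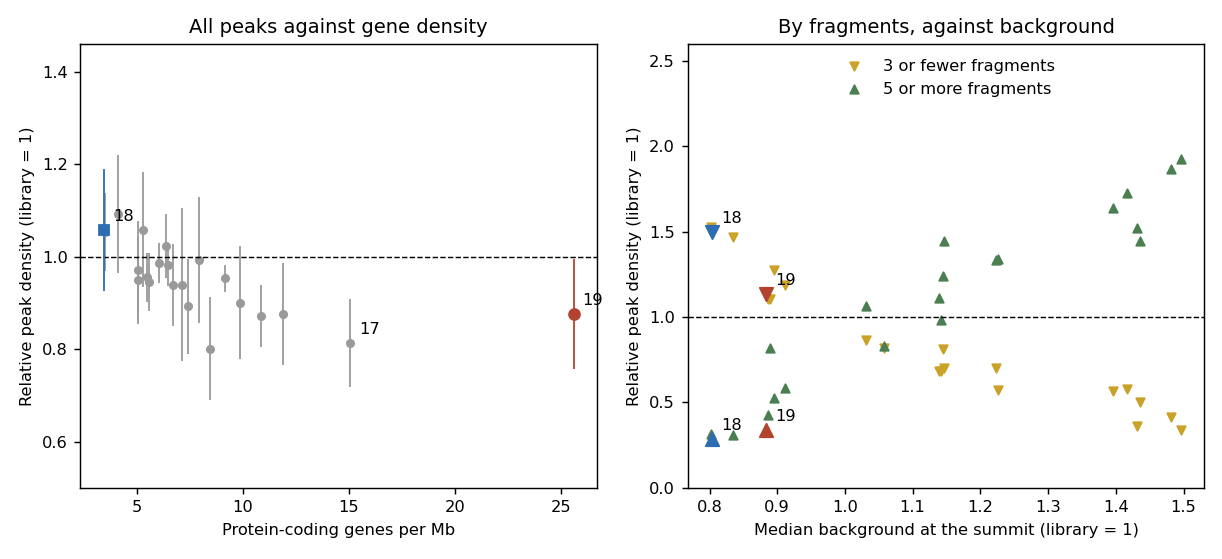
Peak density of the 22 autosomes relative to the library (mean of 12 libraries, on length without peak-free stretches), against coding genes per Mb of that length with SD bars (left), and by fragments at the summit against the relative local background (right). Chromosome 19 lies farthest right on the gene axis at a density of 0.876, and in the right panel chromosomes 18 and 19 have the backgrounds 0.804 and 0.883.

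Promoters were grouped by GC to compare the pair at like composition. On chromosome 19 the share of starts with a peak within 1 kb averaged 24.4% for windows under 50% GC (74 promoters), 23.2% at 50% to 60% (337), 22.9% at 60% to 70% (519) and 22.8% at 70% or more (255). On chromosome 18 it averaged 29.7% (43 promoters), 29.3% (39), 28.3% (79) and 26.5% (73). In each class chromosome 18 thus had the higher share. For all promoters the share was 23.1% on chromosome 19, 28.1% on chromosome 18 and 23.4% of the 15842 promoters of all chromosomes in the table.

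Peak density at starts, on the log2 scale, was different between chromosome 19 and chromosome 18 by -0.30 ± 0.40 at 60% to 70% GC and by -0.30 ± 0.55 at 70% or more, lower on chromosome 19, in 11 of 12 libraries each (exact sign-flip permutation p = 0.0298 and 0.00928, adjusted p = 0.0447 and 0.0278). These values are relative to the whole library and lie close to the difference between the whole chromosomes, -0.32. Divided by the density of their own chromosome, starts in these classes differed by 0.02 ± 0.48 and 0.02 ± 0.58 (exact permutation p = 0.885 and 0.962, added after seeing the data). Without knockdown RELA replicate 1, one of the short lists, the value at 70% or more was -0.15 (exact permutation p = 0.0186), and at 60% to 70% leaving out any of knockdown RELA replicate 2, control RELA replicate 1, knockdown RELB replicate 1, knockdown NFKB2 replicate 2 or control NFKB2 replicate 2 raised the p above 0.05, to at most 0.0596. The classes under 60% GC gave no ratio in at least 1 library, where chromosome 18 had no peak, and were not tested. Within chromosome 19, windows of 70% or more differed from those under 50% by -0.09 ± 0.63 (exact permutation p = 0.647), which the spread between libraries did not allow to be told from 0.

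The κB consensus, searched for on both strands, occurred in 156 of 1185 promoter windows on chromosome 19 (13.2%, exact 95% binomial interval 11.3% to 15.2%), in 29 of 234 on chromosome 18 (12.4%, 8.46% to 17.3%) and in 1944 of 15842 on all chromosomes (12.3%). The intervals cover counting error only. A peak lay within 1 kb of the start for 22.6% of chromosome 19 promoters with the consensus and 23.1% of those without, a difference of -0.496 ± 3.15 percentage points (exact sign-flip permutation p = 0.595). Chromosome 18 gave shares of 29.6% and 27.9%, a difference of 1.67 ± 10.8 points (exact permutation p = 0.593). On both chromosomes the shares with and without the consensus differed by less than the spread between libraries.

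Starts that recurred between libraries were rarer on chromosome 19. Of its 1185 starts, 116 had a peak within 1 kb in no library, 59 (4.98%) in at least 6 libraries and 3 in 8, the most. On chromosome 18, 10 of 234 had none, 25 (10.7%) had one in at least 6 and 2 in at least 8, with a maximum of 9. For all chromosomes 8.11% of starts had one in at least 6 libraries, and the difference between chromosomes was not tested. The 3 on chromosome 19 were SLC1A6, ZNF254 and NLRP5 (an oocyte factor), whose windows had 61.0%, 55.7% and 61.0% GC.

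The study's examples on chromosome 19 rested on few fragments. The paper reports more RELB binding at PSENEN and TMEM147 in DAB2IP knockdown cells than in control cells. It gives them as examples of genes with RELB up-peaks in knockdown cells that were also upregulated in DAB2IP-low Luminal A tumors. Signal tracks are shown for both. Listed peaks of single libraries were counted here, which is a different measure and does not test the paper's comparison. PSENEN, with its span widened by 1 kb on each side, had 1 and 1 peaks in knockdown RELA replicates 1 and 2 and 0 and 1 in control RELA. It had 1 and 2 peaks in knockdown RELB and 0 and 1 in control RELB, and 1 and 3 in knockdown NFKB2 and 0 and 0 in control NFKB2. In all, 9 of its 11 peaks were in knockdown libraries, where all 6 libraries had one, against 2 of 6 control libraries. The strongest peak in each library rested on 3 to 7 fragments, none passed a q-value (p adjusted for multiple testing by the peak caller) of 0.05, and knockdown libraries held 40.1% of all chromosome 19 peaks. The gene was chosen by the study from these libraries, so its direction is not independent evidence.

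TMEM147 had 1 peak each in control RELA replicate 1 and control RELB replicate 2, on 3 fragments each. It had 0 in the other 10 libraries, both knockdown RELB libraries included. Both peaks of TMEM147 thus lay in control libraries. PSENEN and TMEM147 held at most 3 peaks in a library, and the counts of single genes were not tested here.

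NF-κB pathway genes on chromosome 19 held peaks in nearly every case, and their difference from other genes was not tested. Peaks of each gene, here and below, were counted on its span widened by 1 kb on each side. The list held 11 genes, 1 of them without a peak (9.09%), against 47 of the 1410 coding genes (3.33%) on spans widened in the same way. Summed over the 12 libraries, the median gene had 0.722 times the density of the chromosome, against 0.944 for all coding genes, and 5 of 11 (45.5%) were above the chromosome's density, against 42.0% of all coding genes. Knockdown libraries held 40.3% of the list's 392 peaks and 40.5% of those of all coding genes, and no peak of a named gene reached a q-value of 0.05.

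Among the subunits and their inhibitors, RELB, one of the immunoprecipitated proteins, had 2 and 7 peaks in knockdown RELA, 8 and 10 in control RELA, 0 and 7 in knockdown RELB, 12 and 2 in control RELB, 5 and 14 in knockdown NFKB2, and 13 and 14 in control NFKB2. Knockdown and control counts overlapped for RELB and NFKB2 and not for RELA, where a short list is among the knockdown replicates, and its 94 peaks made 1.32 times the chromosome's density. NFKBIB, which encodes the inhibitor IκBβ, had 0 peaks of up to 5000 bp in all 12 libraries. It lay wholly inside a stretch of 190 kb with no such peak (chr19:38805465-38995406). Longer intervals were listed only in knockdown RELA replicate 2 (up to 188 kb) and knockdown NFKB2 replicate 2 (up to 187 kb). They were not checked against this stretch. NFKBID, an atypical nuclear inhibitor, had 20 peaks, 15 in knockdown and 5 in control libraries. BCL3, the coactivator of that inhibitor family, had 19 peaks, 6 in knockdown and 13 in control libraries. How many genes of the chromosome split as far as RELB, NFKBID or BCL3 was not counted, and these splits were not tested.

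Among signalling genes and targets, ICAM1, an adhesion molecule and classical NF-κB target, had 37 peaks, 20 in knockdown and 17 in control libraries. TICAM1, the adaptor of Toll-like receptor 3, had 23, and IRF3, the interferon regulatory factor downstream of it, had 9. Of the 9 peaks of IRF3, 8 lay in knockdown libraries, 4 of them in knockdown NFKB2 replicate 2. TICAM1 went the other way, with 7 in knockdown and 16 in control libraries. Neither split was tested. CARD8, an inflammasome sensor, had 131. The TNF family ligands TNFSF9, TNFSF14 and CD70 had 6, 21 and 32. In relation to length, CD70 was the densest of the list at 1.52 times the chromosome and TNFSF9 the least dense of those with a peak, at 0.474.

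On chromosome 18 the pathway list of 5 genes had a median of 0.917 times the chromosome's density, against 1.02 for its 268 coding genes. MALT1, a paracaspase, had 1 and 17 peaks in knockdown RELA and 9 and 17 in control RELA, and 209 peaks over all libraries. BCL2, an inhibitor of apoptosis, had 424 peaks, between 5 and 74 a library. TNFRSF11A, the RANK receptor, had 151, NFATC1 214 and PMAIP1, a pro-apoptotic BH3-only gene, 13. The counts followed gene length: BCL2 spans 197 kb and PMAIP1 4.31 kb, at 0.917 and 0.886 times the density.

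Known genes outside the pathway were described in the same way. The 8 on chromosome 19 (JUNB, JUND, KLF2, CEBPA, TGFB1, AKT2, CCNE1 and APOE) had a median of 0.972 times the chromosome's density and 30.7% of their 215 peaks in knockdown libraries, and the 8 on chromosome 18 (SMAD2, SMAD4, SMAD7, GATA6, CDH2, TYMS, DCC and LAMA3) 1.01 times and 43.7%. No difference between lists was tested. JUND, an AP-1 subunit, had 11 peaks, none in knockdown and 11 in control libraries. KLF2, an endothelial and lymphocyte transcription factor, had 1 in knockdown and 10 in control libraries. The peaks of JUND lay in 5 libraries and those of KLF2 in 6, with at most 3 in any library. Both were singled out for an uneven split. AKT2, with the most peaks of the 8, had 41 in knockdown and 57 in control libraries. Of all chromosome 19 peaks, 40.1% were in knockdown libraries. The short lists are among the knockdown libraries, how many other genes split as far is not given here, and these splits were not tested. DCC, the netrin receptor, whose span is 1196 kb, had 3086 peaks and 1.11 times the density of chromosome 18.

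Peaks past a q-value of 0.05 were few on both chromosomes and lay mostly outside coding spans. Chromosome 19 had 15 of 107572 (0.0139%), chromosome 18 had 49 of 186709 (0.0262%), and all chromosomes had 1540 of 6172657 (0.0249%). Per library they were 0 to 3 on chromosome 19 and 0 to 9 on chromosome 18. The difference between the chromosomes in the percentage per library was -0.00440 ± 0.0289 (exact sign-flip permutation p = 0.622).

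The 15 peaks fell into 14 regions, of which 1 was called in 2 libraries, chr19:27109271-27109671 in knockdown RELA replicate 1 and knockdown NFKB2 replicate 1. It rested on 5 to 9 fragments and lay in the longest gene-free stretch of the chromosome (chr19:24179012-27681071, 3.50 Mb), as did 6 of the 15 peaks. The pair inside coding spans lay in ZNF415, a zinc finger gene, and TTYH1, a chloride channel gene. On chromosome 18, 33 of 49 lay in the gene-free stretch chr18:15330264-20946905 (5.62 Mb) and none in a coding span. Whether the gene-free stretches of the pair hold centromeric repeats, where reads are hard to place, was not examined. Peaks there are thus not read as binding in ordinary sequence between genes. The most recurrent region, chr18:108043-108567, was called in 7 libraries on 176 to 251 fragments but at a fold enrichment of only 1.53 to 2.05, so it stood on a high background.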

How the data were processed

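Peaks of 12 IP libraries were analysed, 2 for each of 6 groups, and groups, replicate numbers and antibodies came from the sample titles. Per the labels the authors used CASAVA 1.8, BWA 0.7.12, MACS2 2.1.0 and DiffBind with build hg38, and one peak list was deposited for each IP library, with no pooling of replicates stated. Lists hold peaks with p up to 0.05. The deposited positions are other values, in bp counted from 0, and were converted to count from 1. The deposited score holds −log10 p, multiplied by 10 and cut to an integer. A fold enrichment over local background at the summit (a ratio) was also deposited, as were the authors' −log10 p-value and −log10 q-value.

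Members and gene lists were chosen with earlier results of these data known. Named genes were the study's examples, listed NF-κB pathway and other known genes of both chromosomes, and the 3 genes on chromosome 19 and 2 on chromosome 18 with start peaks in the most libraries. Computed here were peaks per Mb (length up to the last peak), median width, shares of midpoints in RefSeq spans and within 1 kb of starts, and fragments and background at the summit, from the fold enrichment and Poisson p of the peak caller. Genes that RefSeq lists on other sequences of a chromosome were dropped, 171 of them coding. Of 19862 coding genes, 15842 had a promoter window, and none of chromosome 8 were among them. Exact sign-flip and permutation tests were run with scipy 1.17.1 and numpy 2.4.6 under Python 3.11.15 (tables with pandas 2.3.3, plots with matplotlib 3.10.9) and tested on simulated data. No p-value across genes was computed. Read depth is not given in the lists. Alternatives were stricter peaks, other lengths and units, a replicate block and each library left out. The input libraries, and intervals over 5000 bp, entered no comparison. Same-numbered libraries of a condition were taken to share an input, and no source says that a number pairs knockdown with control.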

Additional observations from a re-analysis of the deposited data

Results flagged for a closer look

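Intervals longer than 5000 bp enter no density or width, and they were ignored where stretches without peaks were drawn. They were listed on both chromosomes in knockdown libraries of replicate 2 and were at 0 in all 6 control libraries. On chromosome 19 knockdown RELA replicate 2 had 64 such intervals covering 1495 kb, the longest of 188 kb, and knockdown NFKB2 replicate 2 had 78 covering 1608 kb, the longest of 187 kb. On chromosome 18 the same libraries had 62 (692 kb, longest 80.4 kb) and 47 (694 kb, longest 140 kb). The other 4 knockdown libraries also had 0. The signal stands above the control level in 2 of 6 knockdown libraries, which share a preparation, and the part of that preparation was not tested.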

How the results depend on the processing

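The density ratio of chromosome 19 over 18 (log2, like the other differences here unless in bp) changed sign with the fragments required. It was 0.199 (exact permutation p = 0.00439) for summits on at least 5 fragments and 0.244 (exact permutation p = 0.00195) when stretches without peaks were also left out, the latter added after seeing the data, and with 4 preparations as units it kept its value, -0.318, at p = 0.125 by the exact test. The width difference was -1.17 bp at −log10 p of at least 2, -1.29 for the 20000 smallest p-values, -8.75 (exact permutation p = 0.00537) at 5 fragments, -0.125 without the longest gene-free stretch, 0 without the libraries with a scaled IP and -2.24 for mean widths. The span difference was 0.0808 for the 20000 smallest p-values, -0.0802 (exact permutation p = 0.0283) at 5 fragments and -0.0393 (p = 0.0137) on the length left, added after seeing the data. The promoter difference was -0.177 at 5 fragments and -0.00556 on the length left, also added. The NFKB2 condition difference was -0.00564 at −log10 p of at least 2 and that of RELB -0.141 at 5 fragments. Regions on chromosome 19 at −log10 p of at least 2 were 33 knockdown-only and 263 control-only (RELA), 18 and 249 (RELB), and 270 and 458 (NFKB2). The causes were not tested, except that the stricter limits keep fewer peaks.

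With single libraries left out, the density ratio ran from -0.345 to -0.290, the width difference from 0.0909 to 1.91 bp, the span difference from -0.0213 to -0.0103, the promoter difference from -0.0123 (without knockdown RELB replicate 2) to 0.0367 and the range over antibodies from 0.0345 to 0.132. RELA condition differences ran from -0.190 to 0.0480, those of RELB from -0.280 to 0.329 and those of NFKB2 from -0.105 to 0.166. Knockdown-only regions ran from 98 to 8423 (RELA), 57 to 6327 (RELB) and 880 to 9704 (NFKB2), and control-only regions from 666 to 8581, 720 to 9187 and 1501 to 12269, since a single library then stands for its condition.

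With a replicate block the condition differences stayed at -0.0709 (RELA), 0.0245 (RELB) and 0.0304 (NFKB2), where 2 pairs cannot give an exact p below 0.5, and without a replicate block the range over antibodies was 0.0529 (exact permutation p = 0.905). Over all results and alternatives, 134 values stayed on the same side of their test or, for region counts, close to the count given, while 20 reversed, 18 moved, 2 gained a call and 1 lost it. Few fragments per summit and 2 libraries a group limit every value.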
